A study of Homo sapiens with 15 samples.

Results

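Transcripts of MDA-MB-231 cells treated with 500 nM ZJ-101 were compared gene by gene with those of cells given DMSO vehicle. The genes compared were the 13561 of 59608 listed genes whose normalized counts averaged 10 or more across the 15 libraries of the experiment. The comparison rested on 6 of these libraries, 3 at 500 nM ZJ-101 and 3 of DMSO. MDA-MB-231 is an established human breast cancer cell line, and ZJ-101 was made as an analog of superstolide A, a compound first found in a sponge, with a less complex structure. Cells of both groups were kept in 2D culture and collected after 6 h, and each library came from a separate biological replicate of the same line. Further dishes received 0.5, 5 or 50 nM and are used here to place the changes at 500 nM on the dose scale. The sources used here give different DMEM formulations for the culture medium, so it is not stated. Since every dish held the same line, p-values measure the spread between these dishes.

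Between 12415519 and 15284762 reads fell on genes in each of the 15 libraries, with 13288165 to 15204938 at 500 nM and 13262548 to 14099280 in DMSO. Mitochondrially encoded genes took 1.02% to 1.83% of the reads at 500 nM and 0.942% to 1.58% in DMSO. On the first principal component, with 20.2% of the variance, the 500 nM libraries lay between 17.8 and 20.54 and the DMSO libraries between -12.4 and -8.84. The library that stood farthest apart on the second component was replicate 2 of 0.5 nM (-26.8). It is in neither group compared, but it affects the pooled spread, the filter on low genes and the scaling of the deposited values. Of 15 mesenchymal markers 14 had a mean of at least 10 counts, with TWIST2 at 0 in both groups. ESR1, a luminal marker, was at 0 in DMSO. However, 11 of 14 luminal and epithelial markers also reached a mean of 10, among them KRT8 (12111 in DMSO) and KRT19 (6281). This limit therefore does not tell a mesenchymal from an epithelial identity. Markers of fibroblasts, endothelium and immune cells reached that mean for 5 of 17 genes, summed to 614 to 652 normalized counts in DMSO and 516 to 562 at 500 nM, and CD3E and HBB were at 0 in both groups.

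Cells keep separate sets of protein-folding helpers in the cytosol, the endoplasmic reticulum (ER) and mitochondria. When proteins misfold in the cytosol, heat-shock factors bind repeated GAA units in promoters and raise the cytosolic chaperones, which is known as the heat-shock response. When folding fails in the ER, the sensors ERN1, ATF6 and EIF2AK3 start the unfolded protein response (UPR), which raises ER chaperones and the factors that carry proteins out of the ER or destroy them. Secreted and surface proteins leave the ER in COPII vesicles, pass through the Golgi, where glycosyltransferases extend their sugar chains, and reach the surface, the matrix or the lysosome.

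At 500 nM, 2409 of the 13561 genes (17.8%) passed an adjusted p of 0.05 in limma on log2(normalized count + 1), 1043 upward (7.69%) and 1366 downward (10.1%). Most changes were small. The median log2 fold change was 0.31 over the genes that rose, -0.37 over those that fell and 0.003 over all tested genes. A change of 0.5 or more on the log2 scale was reached by 185 risen and 437 fallen genes, 1 or more by 24 and 95, and 2 or more by 3 and 3. The libraries of both groups did not overlap for 5223 genes (38.5%), so a lack of overlap on its own was common in these data. Fold changes below are log2 values on the scale of log2(normalized count + 1), where low genes appear to change less than they did, and rose and fell are used only of genes past the threshold. In bulk RNA, fewer cells of a type and less RNA per cell cannot be told apart.

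**Figure D1:**
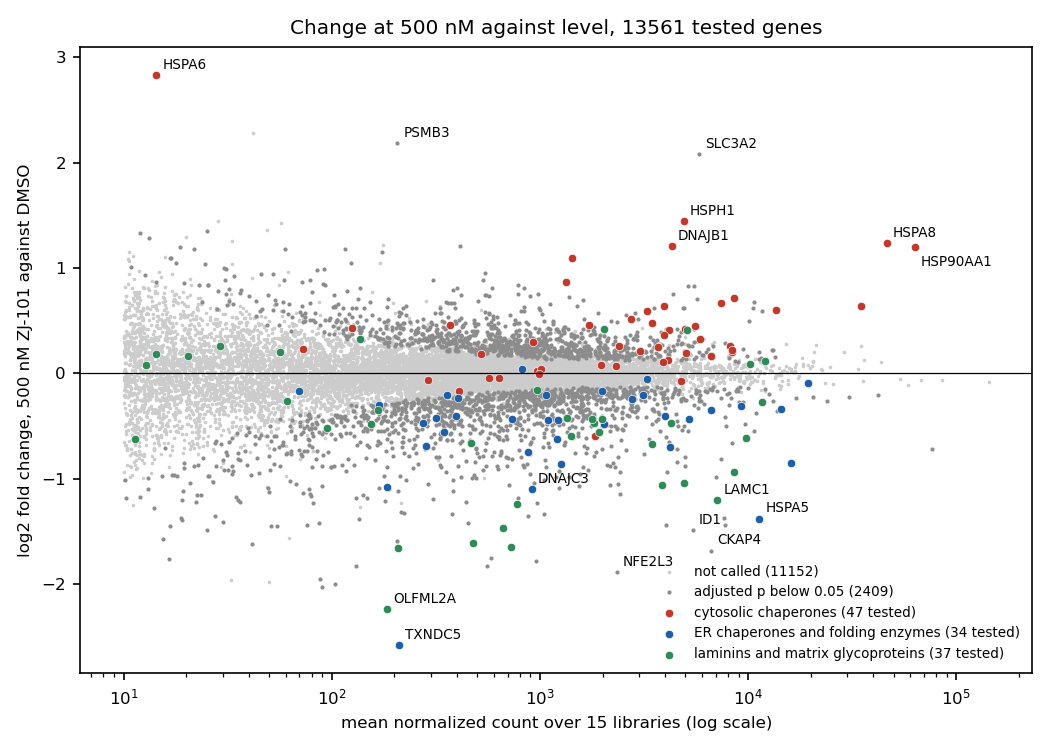
Log2 fold change at 500 nM against DMSO (vertical axis) by mean normalized count over 15 libraries (horizontal axis, log scale) for 13561 genes, with called genes in dark grey and 3 gene groups in color. Cytosolic chaperones (red) lie mostly above 0, while ER chaperones (blue) and laminins with matrix glycoproteins (green) lie mostly below it.

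Among genes that averaged 100 counts or more and had libraries that did not overlap, the rises were led by PSMB3, SLC3A2, HSPH1, HSPA8 and DNAJB1. SLC3A2 (chr11:62856004-62888880, plus strand, hg38 with GENCODE 44 as for all positions here), the heavy chain shared by several amino acid transporters, stood at 2612, 2433 and 2389 normalized counts in the DMSO libraries and at 10476, 10704 and 10228 at 500 nM. Its level was 4.23-fold higher, with a 95% interval of 1.94 to 2.22 for the log2 fold change. PSMB3, a proteasome subunit, had 83.6, 88.0 and 87.3 counts in DMSO but 734, 191 and 441 at 500 nM, so its 3 treated libraries differed widely. PSMB3 has a near-identical copy on an alternate contig and did not pass without 500 nM replicate 1 (adjusted p = 0.077, limma). Further rises of over 1 came from PLD6 (1.18), a mitochondrial phospholipase, PDZD2 (1.16) and CHORDC1 (1.10).

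The falls of the same rule included TXNDC5, OLFML2A, NFE2L3 and CX3CL1. OLFML2A (chr9:124777133-124814885, plus strand), a secreted matrix protein, had 339, 326 and 325 normalized counts in DMSO and 69.3, 70.8 and 67.1 at 500 nM, and its level was 0.212 of that in DMSO. Its lowest DMSO library lay above its highest 500 nM library, which the rule required of every gene it picked. CX3CL1, a membrane-bound chemokine, and ICAM1, an adhesion molecule for leukocytes, both changed by -1.83, and HES1, a transcriptional repressor downstream of Notch, by -1.60. TXNDC5, an ER disulfide isomerase, had the largest fall (-2.58), but its 500 nM libraries ranged from 23.8 to 155 counts and 61.1% of its exon bases lie inside another gene, BLOC1S5-TXNDC5.

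Cytosolic chaperones and their co-chaperones rose together. Of 52 listed members of this group 47 were tested. The Hsp70 genes HSPA1A, HSPA1B and HSPA1L lay below the mean of 10 counts and were not. Of the 47, 32 rose and 1 fell at 500 nM, against 7.69% and 10.1% over all tested genes, and the median log2 fold change was 0.30. HSPH1 (chr13:31134973-31162388, minus strand), an Hsp110 chaperone that reloads Hsp70 with nucleotide, had 3284, 2994 and 3149 normalized counts in DMSO and 8734, 8693 and 8296 at 500 nM. HSPA8 (chr11:123057489-123063230, minus strand), the constitutive Hsp70 of the cytosol, had 32831, 30333 and 29337 counts in DMSO and 73465, 72786 and 71796 at 500 nM. In both genes every 500 nM library lay above every DMSO library, as the rule for the largest rises had required. The log2 fold changes were 1.45 (standard error 0.07, adjusted p = 2.1e-11, limma) and 1.24 (standard error 0.06, adjusted p = 1.9e-11, limma). DNAJB1 (chr19:14514769-14560391, minus strand), an Hsp40 that delivers clients to Hsp70, rose from 3033, 3053 and 2861 counts to 6859, 6661 and 7196, with a change of 1.21 in log2 (adjusted p = 5.0e-13, limma). HSP90AA1 (chr14:102080742-102139699, minus strand), the inducible Hsp90, held 43811, 44275 and 43780 counts in DMSO and 100688, 102246 and 99685 at 500 nM.

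Further chaperones and co-chaperones of this group rose by differing amounts. CHORDC1, an Hsp90 co-chaperone, changed by 1.10, HSPA4L and HSPA4, which belong to the Hsp110 family, by 0.87 and 0.42, and DNAJA1, an Hsp40, by 0.71. STIP1, which links Hsp70 to Hsp90, changed by 0.67, AHSA1, which activates the Hsp90 ATPase, by 0.64, and HSP90AB1, the constitutive Hsp90, by 0.64. BAG3, a nucleotide exchange factor of Hsp70, rose by 0.21 (adjusted p = 0.0028, limma). HSPA6, a strictly inducible Hsp70, had 6.73, 2.02 and 5.07 normalized counts in DMSO and 34.7, 36.4 and 37.1 at 500 nM. Its log2 fold change of 2.83 was the largest rise of the 13561 genes, at a level of few reads. Every DMSO library of HSPA6 lay below the mean count required of a tested gene. Libraries of treated dishes therefore carried HSPA6 past that filter, and so into this ranking and into the count of risen chaperones. The sequence of HSPA6 is near-identical to that of HSPA7. Reads of HSP90AA1 and the pseudogene HSP90AA2P, and of HSP90AB1 and HSP90AB3P, could also be divided between near-identical copies. The member of the group that fell was HSPA13 (-0.60), an Hsp70-like protein associated with microsomes. HSF1, the main heat-shock factor, was not called at 0.08 (95% interval -0.01 to 0.16).

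Within the 6 chaperone families compared further on, the promoters of the 4 genes with the smallest p among the rises are shown, for the sequence that heat-shock factors bind. Each is the 250 bases before the start of the gene's canonical transcript (GENCODE 44, hg38), on the gene's strand. Capitals mark pairs of inverted GAA units, GAANNTTC or TTCNNGAA, which read the same on both strands. DNAJB1 (chr19:14518398-14518647, minus strand) holds 2 pairs, HSPA8 (chr11:123062137-123062386, minus strand) 4, HSPH1 (chr13:31161905-31162154, minus strand) 3 and HSP90AA1 (chr14:102087045-102087294, minus strand) 3, and where pairs overlap they form a single run of capitals.
DNAJB1: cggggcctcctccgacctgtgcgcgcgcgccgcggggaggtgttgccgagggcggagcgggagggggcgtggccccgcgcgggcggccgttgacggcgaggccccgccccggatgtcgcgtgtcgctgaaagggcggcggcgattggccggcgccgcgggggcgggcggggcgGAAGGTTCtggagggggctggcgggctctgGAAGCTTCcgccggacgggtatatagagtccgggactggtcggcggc
HSPA8: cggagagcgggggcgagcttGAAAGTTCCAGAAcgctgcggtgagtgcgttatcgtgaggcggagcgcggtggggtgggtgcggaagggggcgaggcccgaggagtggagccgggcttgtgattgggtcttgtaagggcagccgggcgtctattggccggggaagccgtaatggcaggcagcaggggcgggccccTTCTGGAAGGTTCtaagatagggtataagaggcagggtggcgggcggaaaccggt
HSPH1: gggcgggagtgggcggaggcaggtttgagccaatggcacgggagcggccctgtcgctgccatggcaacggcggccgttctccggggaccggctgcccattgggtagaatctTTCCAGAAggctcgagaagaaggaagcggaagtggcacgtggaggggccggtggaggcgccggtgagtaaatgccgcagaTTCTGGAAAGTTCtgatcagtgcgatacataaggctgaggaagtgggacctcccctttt
HSP90AA1: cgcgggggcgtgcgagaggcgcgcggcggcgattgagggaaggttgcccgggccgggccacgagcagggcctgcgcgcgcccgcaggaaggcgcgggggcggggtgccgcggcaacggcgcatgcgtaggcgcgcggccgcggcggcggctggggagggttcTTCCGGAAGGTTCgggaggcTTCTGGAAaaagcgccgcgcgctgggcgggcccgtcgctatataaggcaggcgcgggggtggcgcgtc

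In DNAJB1 the pairs begin 77 and 47 bases before the start. The pairs closest to the start begin 50 bases before it in HSPA8, 54 in HSPH1 and 68 in HSP90AA1. In the window from 250 bases before to 50 bases after the start, 20 of the 32 chaperone genes that rose held a pair (62.5%), compared with 1051 of the 11746 tested protein-coding genes (8.95%). A run of 3 such units was found in 8 of the 32, including HSPA8, HSPH1, HSP90AA1 and DNAJA1, and in 35 of the 11746 promoters (0.298%). These genes were listed for their function in the heat-shock response, so the shares describe the list and are not independent of it. The choice of start mattered here. At the starts of the RefSeq promoter table, which held 29 of the 32, 10 had a pair (34.5%), and the start of HSP90AA1 lies 52705 bases from the canonical one, that of DNAJB1 10874 and that of HSPH1 484. The canonical start was adopted after the shares at the RefSeq starts had been seen.

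The ER counterparts of these chaperones changed the other way. Of 34 tested ER chaperones and folding enzymes, 27 fell and 0 rose, with a median log2 fold change of -0.43. HSPA5 (chr9:125234853-125241382, minus strand), the Hsp70 of the ER also known as BiP, had 14375, 14267 and 13787 normalized counts in DMSO and 5384, 5282 and 5651 at 500 nM, so its level was 0.385 of that in DMSO (95% interval of the log2 fold change -1.47 to -1.29). DNAJC3 (chr13:95677139-95794988, plus strand), an ER Hsp40 that works with BiP, went from 1311, 1388 and 1356 counts to 640, 626 and 624. In both genes all 3 treated libraries lay below all 3 DMSO libraries by a wide margin compared with the spread within a group. HSP90B1, the Hsp90 of the ER, fell by less, from 16023, 15886 and 15940 counts to 12571, 12726 and 12459 (-0.34, adjusted p = 8.1e-06, limma). PPIB, an ER cyclophilin that acts on collagen and has 26.6% of its exon sequence inside a neighboring gene, changed by -0.44, and ERO1B, which oxidizes the disulfide isomerases, by -1.08.

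**Figure D2:**
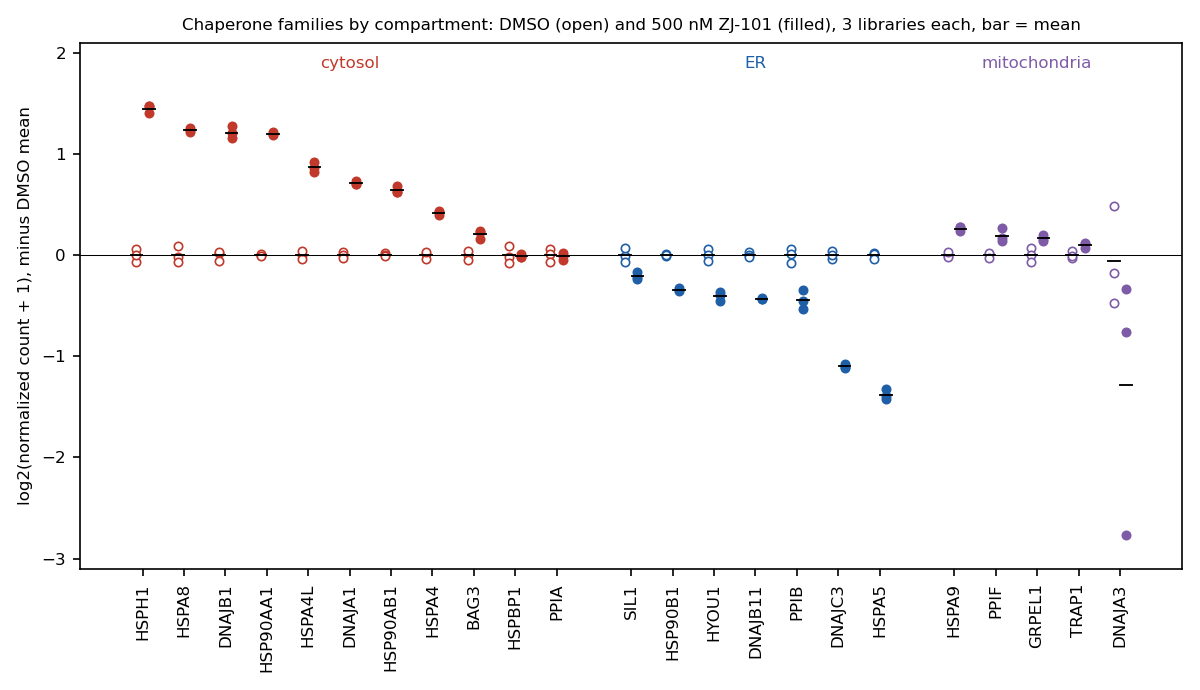
Log2(normalized count + 1) minus the DMSO mean (vertical axis) for each library of DMSO (open circles) and 500 nM ZJ-101 (filled circles), for the members of 6 chaperone families in the cytosol, the ER and mitochondria, with a line at each group mean. Of the cytosolic members 9 of 11 rose and of the ER members 6 of 7 fell, with HSPA5 at -1.38 and HSPH1 at 1.45.

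Within each of 6 chaperone families, members of different compartments could be set side by side. Of 11 cytosolic members 9 rose and 0 fell (median 0.71), of 7 ER members 0 rose and 6 fell (median -0.43), and of 5 mitochondrial members 3 rose and 0 fell (median 0.17). In the Hsp70 family the log2 fold change was 1.24 for HSPA8 in the cytosol, -1.38 for HSPA5 in the ER and 0.26 for HSPA9 in mitochondria. In the Hsp90 family it was 1.20 and 0.64 for HSP90AA1 and HSP90AB1, -0.34 for HSP90B1 and 0.10 for TRAP1, which was not called (adjusted p = 0.20, limma). The ER member of the Hsp110 family, HYOU1, fell by 0.41. Among Hsp40 genes, DNAJB1 and DNAJA1 rose while DNAJB11 (-0.43) and DNAJC3 (-1.10) fell. The cyclophilins gave -0.01 for PPIA in the cytosol, which was not called (95% interval -0.13 to 0.10), -0.44 for PPIB and 0.19 for PPIF. Nucleotide exchange factors differed least. HSPBP1 stayed at -0.01 and SIL1 of the ER at -0.20, neither of them called (adjusted p = 0.94 and 0.074, limma). The mitochondrial exchange factor GRPEL1 rose by 0.17, a call lost with no filter on low genes and without any of 5 libraries in turn, and the call of PPIF was lost when DMSO replicate 3 or 500 nM replicate 1 was omitted (largest adjusted p 0.16 and 0.10, limma). DNAJA3 of the mitochondria had a log2 fold change of -1.23, the lowest of the 5 mitochondrial members, but was not called. It spread from 52 to 284 counts at 500 nM and has a near-identical copy on an alternate contig.

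The mitochondrial chaperonin genes HSPD1 and HSPE1, which share a promoter region, rose by 0.62 and 0.67. HSPD1 had 8825, 8862 and 8839 normalized counts in DMSO and 13747, 13760 and 13186 at 500 nM. Both have near-identical pseudogenes. Of 18 tested mitochondrial chaperones and proteases 5 rose and 0 fell, with a median of 0.06. None of the 13 mitochondrially encoded transcripts was called by limma, and their median was 0.09.

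The promoters of the 4 genes with the smallest p among the falls within the same 6 families, all of the ER, are shown for comparison. Other ER chaperones had smaller p than HSP90B1 and PPIB, among them CALR, PDIA6 and ERO1B, whose promoters hold the ER stress element and are not printed. Capitals mark the ER stress element, which consists of CCAAT and CCACG separated by a gap of 9 bases and is bound by ATF6 together with NF-Y in the UPR, on either strand. HSPA5 (chr9:125241344-125241593, minus strand) holds 1, HSP90B1 (chr12:103930160-103930409, plus strand) 2, and DNAJC3 (chr13:95676889-95677138, plus strand) and PPIB (chr15:64163023-64163272, minus strand) have no match to these letters in the 250 bases.
HSPA5: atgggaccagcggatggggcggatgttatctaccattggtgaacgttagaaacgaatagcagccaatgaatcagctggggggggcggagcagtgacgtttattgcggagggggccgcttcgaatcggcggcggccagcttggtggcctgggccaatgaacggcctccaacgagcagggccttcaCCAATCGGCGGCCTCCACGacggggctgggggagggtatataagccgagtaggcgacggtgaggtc
HSP90B1: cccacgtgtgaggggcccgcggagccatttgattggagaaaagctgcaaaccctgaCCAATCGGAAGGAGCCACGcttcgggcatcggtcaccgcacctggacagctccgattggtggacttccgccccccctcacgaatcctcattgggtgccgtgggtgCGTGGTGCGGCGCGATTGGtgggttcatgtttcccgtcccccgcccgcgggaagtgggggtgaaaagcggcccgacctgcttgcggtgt
DNAJC3: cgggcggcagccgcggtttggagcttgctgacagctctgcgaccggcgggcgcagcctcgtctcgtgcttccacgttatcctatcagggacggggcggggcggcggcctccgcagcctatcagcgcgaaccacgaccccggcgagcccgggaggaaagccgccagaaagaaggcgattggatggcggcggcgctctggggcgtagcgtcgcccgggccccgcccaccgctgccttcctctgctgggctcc
PPIB: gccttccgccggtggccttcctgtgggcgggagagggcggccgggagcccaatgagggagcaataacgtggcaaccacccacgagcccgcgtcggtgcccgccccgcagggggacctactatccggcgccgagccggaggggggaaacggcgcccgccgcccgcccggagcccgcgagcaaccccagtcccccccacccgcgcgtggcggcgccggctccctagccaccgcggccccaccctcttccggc

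The element of HSPA5 runs from 66 to 48 bases before the start. That of HSP90B1 closest to its start runs from 89 to 71 bases before it and lies on the opposite strand. Of the 27 ER chaperones that fell, 6 held the element in the window of 300 bases (22.2%), against 16 of 11746 tested protein-coding genes (0.136%), and 21 held a CCAAT box (77.8%), against 36.05% of all. At the RefSeq starts the element was found in 5 of 25 (20%) and in 0.143% of all. These genes, too, were listed for their known role in the UPR.

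The genes that start and carry the UPR changed less evenly. Of 18 tested sensors and transcription factors, 2 rose and 7 fell, with a median of -0.03. XBP1 (chr22:28794555-28800597, minus strand), the factor spliced by the sensor ERN1, had 1907, 1876 and 1736 normalized counts in DMSO and 892, 957 and 931 at 500 nM, with no overlap between the groups (-0.99, adjusted p = 4.4e-10, limma). ATF6, a sensor and factor in itself, fell by 0.62, CREB3L1, a related membrane-bound factor, by 0.50, and CEBPB by 0.72. ERN1 rose by 0.31, from 371, 368 and 310 counts to 450, 441 and 409, and PPP1R15A, which reverses the block on translation set by the UPR, rose by 0.32. ATF4 and DDIT3, known from prolonged ER stress, were not called. ATF4 had a log2 fold change of -0.004 (95% interval -0.11 to 0.10) and DDIT3, at 56.2 ± 8.94 normalized counts in the 3 DMSO libraries and 68.5 ± 2.63 in the 3 treated ones (SD), one of 0.29 (95% interval -0.08 to 0.67). The interval of DDIT3 was the wider one, at a level of few reads.

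Genes of ER-associated degradation, which pulls misfolded proteins out of the ER, went both ways. Of 27 tested, 6 rose and 8 fell (median -0.01). The largest falls were those of EDEM3 (-0.99), ERLEC1 (-0.88) and EDEM1 (-0.56), which pick glycoproteins for degradation, and of HERPUD1 (-0.66), a membrane protein of the degradation complex. The largest rises were those of the ubiquitin ligase SYVN1 (0.29), its partners FAF2 (0.39) and AUP1 (0.36), and SELENOS (0.27). EDEM3 went from 1473, 1388 and 1448 counts in DMSO to 764, 752 and 662, and FAF2 from 1857, 1865 and 1845 to 2406, 2437 and 2447. In neither gene did the groups overlap.

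Entry into the ER changed little. Of 26 tested genes of the translocon and signal peptide processing, 4 rose and 2 fell (median 0.05), with TRAM2 (0.62), SRPRB (0.38), SEC62 (0.34) and SSR3 (0.21) up and SPCS3 (-0.35) and SSR1 (-0.23) down. Exit from the ER shifted downward. Of 31 COPII and ER exit genes 18 fell and 2 rose, with a median of -0.20. SEC24D (chr4:118722823-118838683, minus strand), a cargo-binding subunit of the COPII coat, had 1267, 1225 and 1180 normalized counts in DMSO and 508, 505 and 552 at 500 nM, a level of 0.426 of that in DMSO (adjusted p = 1.3e-10, limma). The p24 cargo receptors TMED7, TMED9 and TMED3 changed by -0.79, -0.77 and -0.70. MIA2, which helps load large cargo, rose by 0.32, and its relative MIA3 by 0.20, a call lost with no filter on low genes or without any of 11 libraries in turn (adjusted p of 0.18 at most, limma).

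Further along, 10 of 25 COPI and retrieval genes fell and 0 rose (median -0.13), as did 12 of 40 golgins and tethers, with 0 rising (median -0.07). COPG1, a subunit of the COPI coat, changed by -0.37, GOLGA5, a golgin, by -0.38, TGOLN2, a protein of the trans-Golgi network, by -0.39, and ACBD3 by -0.49. Of the KDEL receptors, which return ER chaperones from the Golgi, KDELR1 (-0.06) and KDELR2 (-0.09) were not called, and KDELR3 changed by -0.34, a call lost when DMSO replicate 1, DMSO replicate 2 or 500 nM replicate 2 was omitted (largest adjusted p 0.071, limma). ARF4, a small GTPase known from Golgi stress, fell by 0.19, and its regulator CREB3 was not called at -0.05 (95% interval -0.15 to 0.06).

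CKAP4 (chr12:106237881-106304279, minus strand), an ER membrane protein that shapes its sheets, fell from 8970, 9290 and 9411 normalized counts to 3045, 2806 and 2777. It was among the 3 genes with an adjusted p of 1.5e-13 (limma), the smallest of the comparison, with HSPA5 and NFE2L3.

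**Figure D3:**
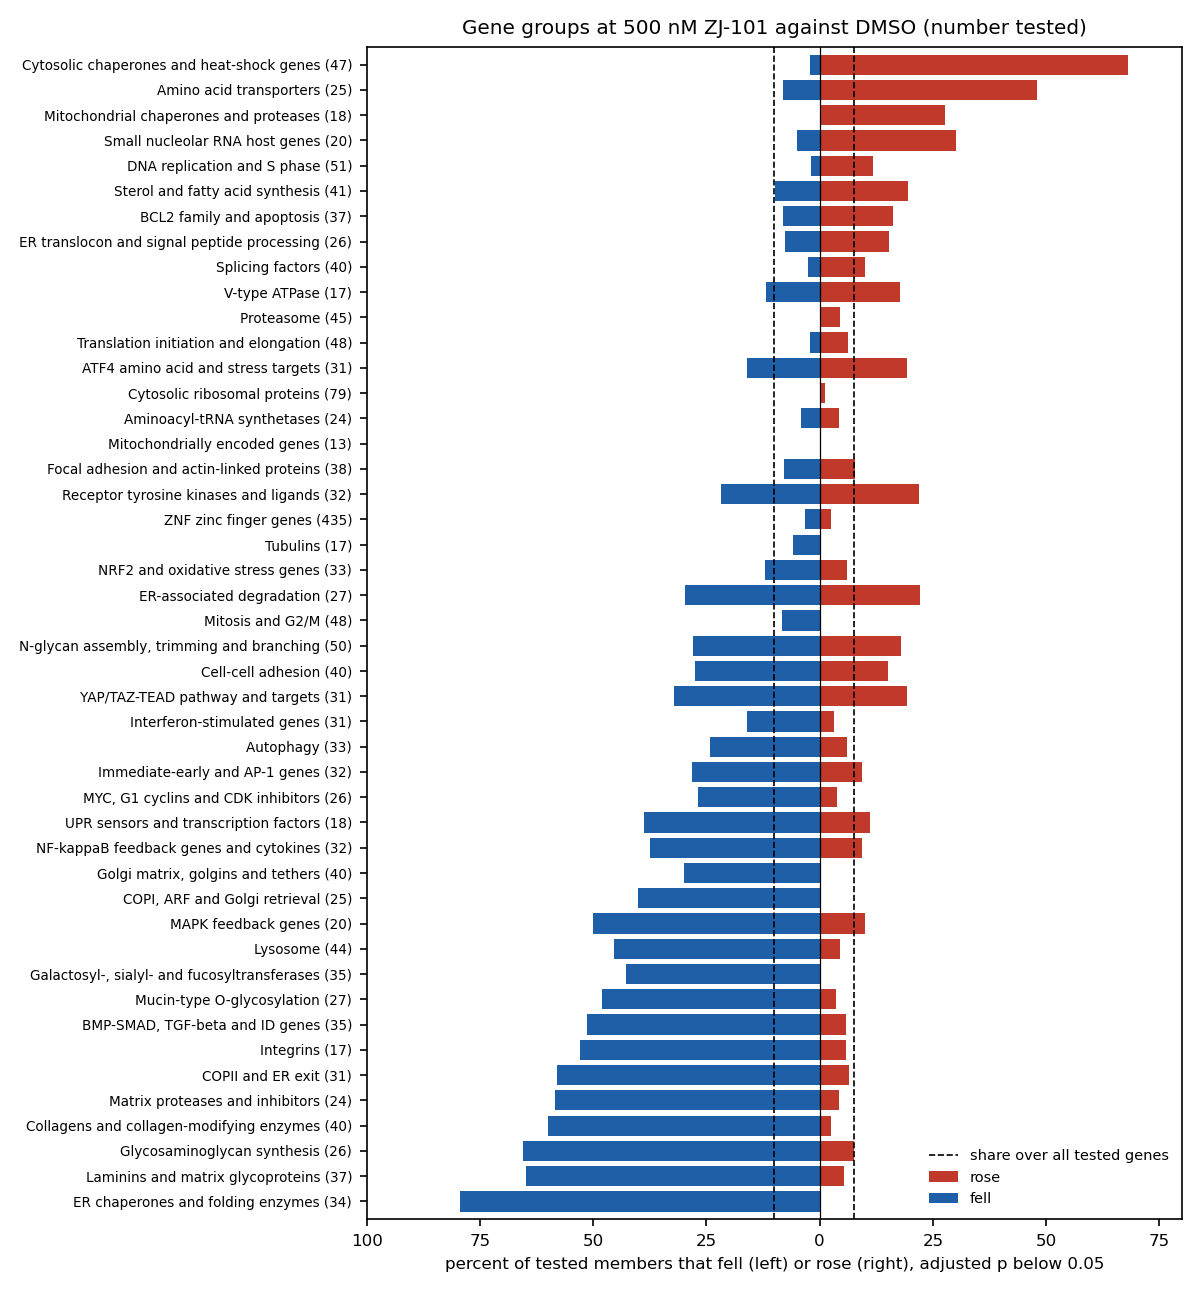
Percent of tested members that fell (bars to the left) or rose (bars to the right) at an adjusted p below 0.05 in each gene group, with the number tested in brackets and dashed lines at the shares over all tested genes, 10.1% and 7.69%. ER chaperones and folding enzymes stand at one end with 27 of 34 fallen and cytosolic chaperones at the other with 32 of 47 risen.

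Of 50 tested genes of N-glycan assembly, trimming and branching 9 rose and 14 fell (median -0.04). The 4 largest rises were those of ALG1 (0.48), DOLK (0.47), DOLPP1 (0.45) and ALG2 (0.42), which act in making the dolichol-linked precursor. The 4 largest falls were those of enzymes that trim and branch the chain, with MOGS, the glucosidase that removes the outermost glucose, at -1.01, the mannosidases MAN1A1 and MAN1B1 at -0.74 and -0.45, and MGAT1, which starts branching, at -0.49. MOGS had 1505, 1352 and 1301 normalized counts in DMSO and 714, 671 and 669 at 500 nM, and DOLK had 410, 433 and 456 and then 586, 602 and 613. The groups overlapped in neither gene.

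Of 27 tested genes of O-glycosylation 13 fell and 1 rose (median -0.21). GALNT5 and GALNT1, which attach the first sugar of mucin-type chains, changed by -0.67 and -0.62, POFUT2, which adds fucose to thrombospondin repeats, by -0.72, and POGLUT3, which adds glucose to EGF repeats, by -0.62. The enzymes that extend the chains in the Golgi, galactosyl-, sialyl- and fucosyltransferases, had 15 of 35 members fallen and 0 risen (median -0.17). ST8SIA4, which makes polysialic acid, went from 425, 413 and 417 counts to 174, 184 and 187, and B4GALT1, the main galactosyltransferase of N-glycans, from 2771, 2713 and 2610 to 1486, 1524 and 1430. The groups did not overlap in either gene.

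Glycosaminoglycan synthesis, which makes the long sugar chains of proteoglycans, showed larger changes, with 17 of 26 genes fallen, 2 risen and a median of -0.41. The falls were led by chondroitin synthesis. CHPF (chr2:219538954-219543809, minus strand), a chondroitin polymerizing factor, had 911, 863 and 874 normalized counts in DMSO and 256, 269 and 258 at 500 nM, and its paralog CHPF2 had 1331, 1280 and 1166 and then 454, 532 and 487. CHSY3, a chondroitin synthase, changed by -1.44 and HS3ST1, which sulfates heparan sulfate, by -0.71. HAS3, which makes hyaluronan at the plasma membrane rather than in the Golgi, rose by 0.62 (adjusted p = 5.9e-04, limma), and CSGALNACT2, which starts chondroitin chains, by 0.23.

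Lysosomal genes fell in 20 of 44 cases and rose in 2 (median -0.19). NAGLU, an enzyme that degrades heparan sulfate, had 405, 415 and 370 normalized counts in DMSO and 190, 174 and 208 at 500 nM, and GLB1, the lysosomal galactosidase, changed by -0.54. NPC1, which exports cholesterol from the lysosome, rose by 0.37 and MCOLN1, its calcium channel, by 0.29. The proton pump of these organelles, the V-type ATPase, had 3 of 17 genes risen and 2 fallen (median -0.01). ATP6V0A1 and ATP6V0A2, isoforms of the same membrane subunit, rose by 0.81 and 0.59. ATP6V0A1 stood at 699, 659 and 635 counts in DMSO and at 1215, 1179 and 1108 at 500 nM. TFEB, the main transcription factor of lysosomal genes, was not called at -0.50 (95% interval -0.87 to -0.13, adjusted p = 0.056, limma), although its libraries did not overlap. Of 33 autophagy genes 2 rose and 8 fell (median -0.01), with the receptor SQSTM1 at 0.29 and GABARAPL1 and ULK1 at -0.46 and -0.40.

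NFE2L1 and NFE2L3, related factors anchored in the ER membrane, fell. NFE2L1 (chr17:48048329-48061545, plus strand), which raises proteasome genes when the proteasome is short, had 5511, 5752 and 5416 normalized counts in DMSO and 2015, 2080 and 2030 at 500 nM (-1.44, adjusted p = 3.8e-11, limma). NFE2L3 had 3160, 3253 and 3117 and then 898, 823 and 850 (-1.89). For NFE2L3, 28.1% of the exon sequence lies inside a neighboring gene, and there is a near-identical pseudogene. Beside these falls, 43 of 45 tested proteasome genes were not called, 0 fell and 2 rose, PSMB3 and PSME3, and the median was -0.05. PSME3 rose by 0.14 and was lost with no filter on low genes or without any of 4 libraries in turn. The third member of this family, NFE2L2, fell by 0.30 with 38.4% of its exon bases inside another gene. Of 33 tested genes listed for NFE2L2 and oxidative stress 2 rose, SLC7A11 (0.43) and ABCC3 (0.36), and 4 fell. The share called, 18.2%, was close to the 17.8% over all tested genes. The 4 falls were NFE2L1, NFE2L2 and NFE2L3 themselves and MT1F (-0.98), a call lost under 12 of 24 alternatives.

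Amino acid transporters formed the other group with many rises. Of 25 tested, 12 rose and 2 fell (median 0.28). SLC7A5, which pairs with SLC3A2 to import large neutral amino acids, had 4356, 4418 and 4395 normalized counts in DMSO and 7141, 6579 and 6588 at 500 nM. SLC7A11, the cystine transporter that also pairs with SLC3A2, rose by 0.43, SLC43A3 by 0.44, SLC38A9, a lysosomal sensor of arginine, by 0.43, and SLC7A1, which carries cationic amino acids, by 0.40. The members that fell were SLC38A10 (-0.82) and SLC38A2 (-0.18). Several of these transporters are ATF4 targets, and both lists share members, among them SLC3A2, SLC7A5, SLC7A11 and SLC7A1. Of 31 tested ATF4 target genes, these included, 6 rose and 5 fell (median -0.04). A part of ATF4 in these changes was not tested. The falls included VLDLR (-0.83) and DDIT4 (-0.49). Aminoacyl-tRNA synthetases, many of which ATF4 also controls, had 1 rise (AIMP2, a scaffold protein, 0.38) and 1 fall among 24, with a median of 0.05.

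Receptors that hold cells to the matrix fell. Of 17 tested integrins 9 fell and 1 rose (median -0.26). ITGA5, the alpha chain of the fibronectin receptor, had 2882, 2888 and 2771 normalized counts in DMSO and 1364, 1330 and 1435 at 500 nM, and ITGA6, a laminin receptor chain, had 8307, 8376 and 8471 and then 4367, 4271 and 4056. Their 500 nM levels were 0.483 and 0.504 of those in DMSO, and no library of either group reached the other. ITGB3 changed by -0.93. The riser, ITGA3 (0.14), was lost with no filter on low genes or without any of 10 libraries in turn (adjusted p of 0.14 at most, limma). Focal adhesion and actin-linked proteins, which join integrins to the cytoskeleton, had 3 rises and 3 falls among 38 (median 0.003). FLNC, a filamin that cross-links actin, rose by 0.75.

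Matrix genes fell widely. Of 40 tested collagens and collagen-modifying enzymes 24 fell and 1 rose (median -0.20), and of 37 laminins and matrix glycoproteins 24 fell and 2 rose (median -0.47). LAMC1, the gamma chain of most laminins, had 8235, 8594 and 8290 normalized counts in DMSO and 4030, 3324 and 3571 at 500 nM, and LAMB1 (chr7:107923799-108003213, minus strand), a beta chain, had 4139, 4265 and 4162 and then 2088, 2035 and 1912. LAMB3, a chain of laminin-332 in epithelial anchoring, rose instead, from 4485, 4305 and 4306 to 6002, 5672 and 5751 (0.41, adjusted p = 1.3e-06, limma). MATN2 (-1.66), LTBP1 (-1.65), which stores latent TGF-beta in the matrix, EFEMP1 (-1.61) and VWA1 (-1.47) had larger falls than the laminin chains. COL5A1, a fibrillar collagen chain, changed by -1.06, COL13A1, a transmembrane collagen, by -0.94, and LOXL1, which cross-links elastin, by -0.96. COL27A1, the collagen that rose, was lost under 12 of 25 alternatives, and FBLN1, the other glycoprotein that rose, under 6.

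Proteases that cut the matrix or shed surface proteins fell as well, in 14 of 24 cases with 1 rise (median -0.28). MMP14 (chr14:22836560-22849041, plus strand), a membrane-anchored collagenase, had 10347, 10281 and 9778 normalized counts in DMSO and 3911, 3948 and 3910 at 500 nM, and MMP15, ADAM10 and ADAMTS15 changed by -1.10, -0.94 and -0.92. Cell-cell adhesion molecules went both ways, with 6 of 40 risen and 11 fallen (median -0.06). CDH11, a mesenchymal cadherin, had 1709, 1597 and 1477 counts in DMSO and 663, 612 and 618 at 500 nM, and PCDH7 changed by -1.12. The claudins CLDN1 and CLDN4 rose by 0.67 and 0.49 and the nectin-like PVR by 0.56. CD44, a hyaluronan receptor, fell by 0.38.

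Of 32 tested receptor tyrosine kinases and ligands 7 rose and 7 fell (median -0.02). The receptors MERTK (0.89), EGFR (0.70), EPHA2 (0.59) and EPHA4 (0.43) led the rises, and the ligands EFNA1 (-0.88), VEGFC (-0.58), PDGFC (-0.52) and PDGFA (-0.32) were among the falls. The receptor EPHB4 also fell and the ligand NRG1 rose, both named after their values were seen. EPHA2 had 9980, 10032 and 9608 normalized counts in DMSO and 15346, 14751 and 14418 at 500 nM. EGFR had 4617, 4676 and 4629 and then 8610, 6919 and 7270, again highest in 500 nM replicate 1. Feedback genes of the MAPK pathway fell in 10 of 20 cases and rose in 2 (median -0.17), with the phosphatases DUSP6 and DUSP5 at -0.51 and -0.50 and the factor ETV1 at -0.50. Immediate-early genes had 3 rises and 9 falls among 32 (median -0.06). JUNB (-0.99), KLF2 (-0.79) and FOS (-1.18) fell, while FOSL1 (0.42) and JUN (0.33) rose.

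Of 35 tested BMP-SMAD, TGF-beta and ID genes 18 fell and 2 rose (median -0.28). ID1 (chr20:31605283-31606515, plus strand), an inhibitor of bHLH transcription factors that BMP receptors switch on, had 6824, 6910 and 6995 normalized counts in DMSO and 2534, 2441 and 2417 at 500 nM. ID3 had 1338, 1362 and 1207 and then 368, 391 and 374, and ID4 124, 137 and 128 and then 26.5, 28.3 and 46.8. The groups did not overlap in any of the 3 ID genes, which the rule for the largest falls had required of ID1 and ID3. SMAD7, the inhibitory SMAD induced by the same receptors, changed by -1.32 (adjusted p = 3.2e-09, limma). The receptor ACVR1 rose by 0.23 and the ligand BMP4 by 0.17, the latter lost when the replicate 3 library of either group was omitted (largest adjusted p 0.059, limma). YAP and TEAD pathway genes had 6 rises and 10 falls among 31 (median -0.06), with CRIM1 (-0.60), F3 (-0.54), FJX1 (-0.50) and NT5E (-0.48) down and ASAP1 (0.49) and DLC1 (0.32) up.

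Feedback genes of NF-kappaB and cytokines fell in 12 of 32 cases and rose in 3 (median -0.11). CSF1 (chr1:109910242-109930992, plus strand), which recruits macrophages, had 11451, 10969 and 10610 normalized counts in DMSO and 4234, 3897 and 4034 at 500 nM. IL6 had 551, 536 and 538 and then 230, 282 and 294, and BIRC3, an inhibitor of apoptosis, changed by -0.76. The cytokines IL1B (0.74), CSF3 (0.44) and IL11 (0.35) rose, IL1B from 636, 674 and 601 counts to 1084, 998 and 1100. At 0.5 and 5 nM IL1B had log2 fold changes of 0.66 and 0.71 with the same DMSO libraries, and at 50 nM one of 0.18, so its level did not follow the dose. Interferon-stimulated genes had 1 rise (IFIT2, lost under 3 of 25 alternatives) and 5 falls among 31 (median -0.07), with IRF1 at -0.44.

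Genes of sterol and fatty acid synthesis did not move as a block. Of 41 tested, 8 rose and 4 fell (median 0.02). The fatty acid elongases ELOVL5 and ELOVL6 rose by 0.43 and 0.30. INSIG1 (-0.86), STARD4 (-0.44) and IDI1 (-0.39), which the SREBP factors control, fell. ABCA1, which exports cholesterol, rose by 0.68, from 370, 370 and 367 counts to 719, 492 and 582, and did not pass without 500 nM replicate 1 (adjusted p = 0.055, limma).

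Genes of DNA replication (13.7% called) and mitosis (8.33%) changed little, against 17.8% called over all tested genes. Of 51 genes of DNA replication 6 rose and 1 fell (median 0.04), with MCM10 and POLE at 0.32 and 0.30, and of 48 genes of mitosis 0 rose and 4 fell (median -0.04), with CDC25C at -0.34, a call lost without 500 nM replicate 1 (adjusted p = 0.053, limma). Among 26 genes of MYC, G1 cyclins and CDK inhibitors 1 rose and 7 fell, a larger share of 30.8% called (median -0.03). MYC rose by 0.29, and CDKN1A, the inhibitor p21, fell from 1633, 1580 and 1668 normalized counts to 1067, 1078 and 1049 (-0.61, adjusted p = 5.8e-08, limma). MXD4 (-0.54), MXI1 (-0.59), which oppose MYC, and CDKN2D (-0.52) fell too. CCND1, cyclin D1, was not called at 0.05 (95% interval -0.05 to 0.15). MKI67, a marker of dividing cells, was not called at 0.28, with an interval of -0.04 to 0.60 and its highest value in 500 nM replicate 1. Apoptosis genes had 6 rises and 3 falls among 37 (median 0.01), with the death receptors TNFRSF10A (0.41) and TNFRSF10B (0.25) up and the BH3-only genes BBC3 (-0.89) and PMAIP1 (-0.37) down.

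Of 79 cytosolic ribosomal proteins 1 rose and 0 fell, with a median of 0.01 and RPL7L1 (0.12), lost under 7 of 25 alternatives, as the riser. Translation factors had 3 rises and 1 fall among 48 (median 0.05), splicing factors 4 and 1 among 40 (median 0.01), and tubulins 0 and 1 among 17 (median 0.01), the fall being TUBA1A (-0.34), which is near-identical to TUBA1B and TUBA1C. ZNF zinc finger genes had 11 rises and 14 falls among 435, with a median of 0.005. Small nucleolar RNA host genes rose in 6 of 20 cases and fell in 1 (median 0.19), led by SNHG12 (0.63), which was lost without DMSO replicate 2 or 500 nM replicate 2, and SNHG4 (0.55). Among cell type markers there were 4 rises and 3 falls among 14 mesenchymal ones (summed level 95973 to 97398 counts in DMSO and 99115 to 101861 at 500 nM), and 0 rises and 3 falls among 11 luminal ones (25833 to 27075 and 24004 to 24683), XBP1 among them. CD14 was the only marker of other cell types that was called, at 28.8, 28.3 and 26.4 counts in DMSO and 9.17, 15.2 and 7.07 at 500 nM.

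The step from 50 to 500 nM showed which changes were still growing. Between these doses 309 of the 13561 genes passed (2.28%), 65 upward (0.479%) and 244 downward (1.8%, limma). The count was 139 without 50 nM replicate 2, 168 and 143 without 500 nM replicates 2 and 3, and 630 without 0.5 nM replicate 2. This step and the comparison with DMSO share the 500 nM libraries, so their values are given side by side and not as independent results. Of the ER chaperones 11 of 34 were lower at 500 than at 50 nM and 0 higher, and of the cytosolic chaperones 11 of 47 were higher and 1 was lower. Laminins with matrix glycoproteins, 14 of 37, and collagens with their enzymes, 14 of 40, were lower at 500 nM, with 0 higher in either list. Glycosaminoglycan synthesis, which had the lowest median of the sugar-building groups, had 0 of 26 in either direction, with medians of -0.33 at 50 nM and -0.41 at 500 nM against DMSO. With 2.28% of all genes called at this step, 0 of 26 is close to that share and does not show that the group stopped changing. Its median change from 50 to 500 nM was -0.077, and that of the ER chaperones was -0.097.

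**Figure D4:**
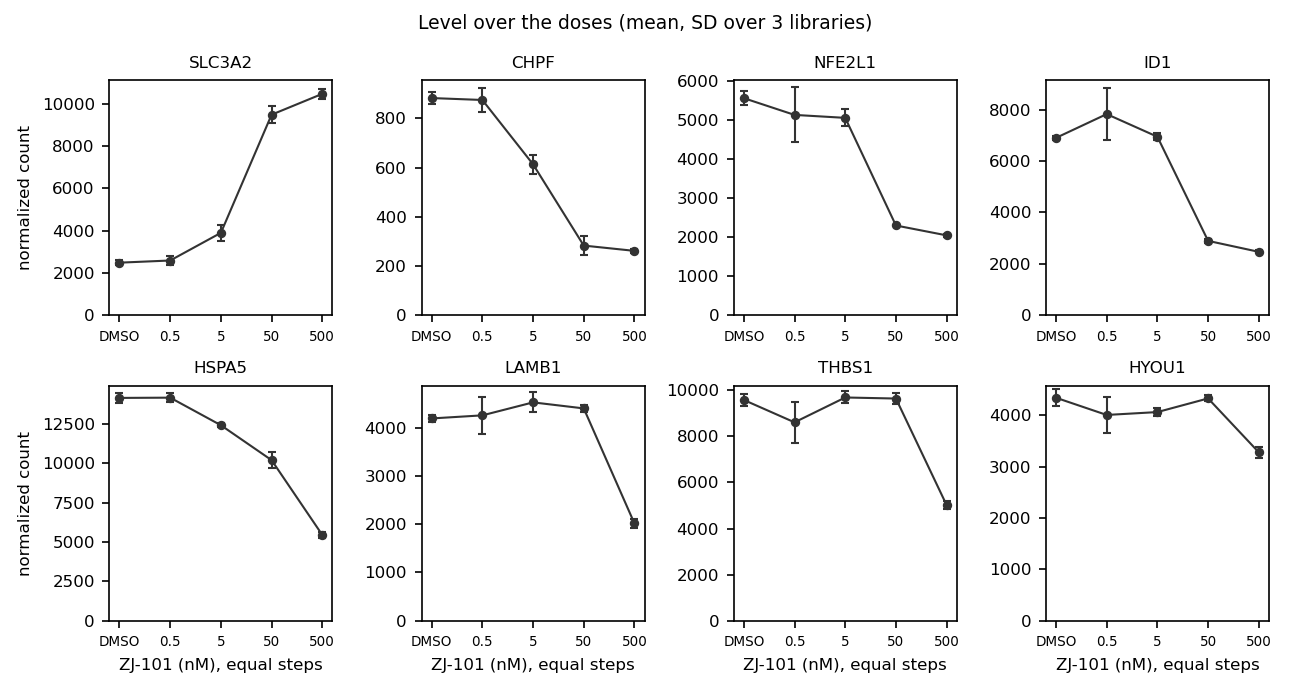
Normalized count (vertical axis, from 0) at DMSO and 0.5, 5, 50 and 500 nM ZJ-101 (horizontal axis, equal steps) for 8 genes, as the mean and SD of 3 libraries. SLC3A2, CHPF, NFE2L1 and ID1 were near their final level at 50 nM, HSPA5 fell in steps, and LAMB1, THBS1 and HYOU1 dropped between 50 and 500 nM.

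Single genes showed 3 shapes. SLC3A2, CHPF and NFE2L1 had log2 fold changes of 1.94, -1.65 and -1.27 at 50 nM and of 2.08, -1.75 and -1.44 at 500 nM against the same DMSO libraries, and the steps between these doses were not called (adjusted p = 0.37, 0.62 and 0.29, limma). The 95% intervals of these steps, 0.00 to 0.28, -0.27 to 0.06 and -0.31 to -0.03, leave room for small further changes. MATN2, at -1.65 and -1.66, and DNAJC3, at -1.01 and -1.10, belonged to the same kind. HSPA5 and NFE2L3 changed at both steps, by -0.47 and -0.82 at 50 nM and by another -0.91 and -1.07 from there to 500 nM. LAMB1 was at 4189 ± 67.3 counts in DMSO, 4397 ± 77.2 at 50 nM and 2012 ± 90.3 at 500 nM (SD over 3 libraries each), so a fall was seen at 500 nM and none at 50 nM. THBS1, thrombospondin-1, at 0.01 and -0.93, and HYOU1, at -0.004 and -0.41, gave the same order at 50 and 500 nM, and LAMC1, at -0.22 and -1.21, and LTBP1, at -0.47 and -1.65, fell mostly at this step.

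Promoter sequences were also read across all called protein-coding genes, in the window of 300 bases around the canonical start. A pair of heat-shock units stood in 124 of 985 promoters of genes that rose (12.6%), 93 of 1323 of genes that fell (7.03%) and 8.95% of all 11746. Runs of 3 units stood in 15, 3 and 35 promoters, and the ER stress element in 1, 9 and 16. The core of the UPR element, TGACGTGG, stood in 6 promoters of genes that rose (0.609%), 32 of genes that fell (2.42%) and 106 of all (0.902%). Among the 35 genes with 3 heat-shock units the median log2 fold change was 0.16, and among the 16 with an ER stress element it was -0.29. The 9 of these that fell were HSPA5, ERO1B, XBP1, CALR, FICD, CRELD2, PDIA6, HSP90B1 and TRIM5, named here after their values were seen. A CCAAT box alone stood in 34.1%, 35.1% and 36.05%, a cyclic AMP element (TGACGTCA) in 4.26%, 2.57% and 3.43%, and a TATA box (TATAAA) in 5.08%, 6.73% and 4.90%. CCAAT is also part of the ER stress element. A match describes the letters of a promoter and does not show that a factor was bound.

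**Figure D5:**
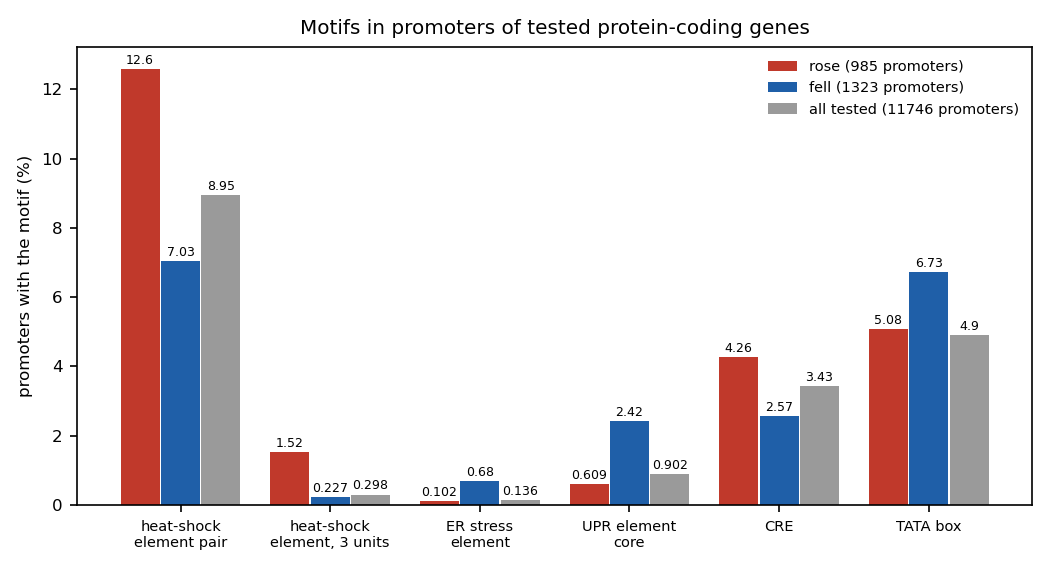
Percent of promoters that hold a motif (vertical axis) for protein-coding genes that rose (985), fell (1323) or were tested (11746), with the value above each bar. Heat-shock units are more frequent among the genes that rose, and the ER stress element and UPR core among those that fell.

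At the RefSeq starts, known for 9787 of these genes, a heat-shock pair stood in 13.0% of promoters of genes that rose, 8.65% of genes that fell and 9.94% of all, and the UPR core in 0.614%, 2.35% and 0.930%. For 1465 of the 9787 genes the starts lay over 250 bases apart.

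Called genes differed from the tested genes in plain properties too. The median transcript length was 3898 bases for genes that rose, 3506 for genes that fell and 3275 over all tested genes, and the median GC content was 50.1%, 49.1% and 47.8%. Of 11746 protein-coding genes 19.6% were called, and of 538 lncRNAs 7.43%, with 26 rising and 14 falling. Transcripts of at least 8000 bases rose in 106 and fell in 83 of 1118 cases (median 0.05), those below 2000 bases in 158 and 224 of 3283. Over the long transcripts 500 nM replicate 1 deviated from its group mean by 0.06 and replicates 2 and 3 by -0.02 and -0.04 on the log2 scale. Long genes such as EGFR, NOTCH2 (0.83), MKI67 and ABCA1 were highest in that replicate, and its part in their values was not tested.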

How the data were processed

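RNA of MDA-MB-231 cells was sequenced in 15 libraries, 3 for each of DMSO and 0.5, 5, 50 and 500 nM ZJ-101. The authors used HISAT2 for alignment to hg38 and HTSeq for counting, and deposited a signal table of gene counts divided by DESeq2 size factors (tools per the labels and the study's methods). Tool versions and the strand setting are not given in the sources used here. Multiplying by the inferred size factors gave whole reads within 0.001 for 100% of values, and these reads were used for depth and for the edgeR and DESeq2 alternatives. The table had 1 row that names no gene, which was left out, and 0 columns of no sample.

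Genes that averaged 10 or more across the 15 libraries were tested with limma 3.58.1 (R 4.3.3) on log2(value + 1), with a mean-variance trend. The 5 groups stood in 1 fit, with Benjamini-Hochberg adjustment over all tested genes at 0.05. Only the limma fit of 500 nM against DMSO was tested on simulated data. It recovered 87 of 99 simulated log2 changes of 1 and 59 of 100 of 0.5, with 6 false calls. Alternatives used edgeR 4.0.16 and DESeq2 1.42.0. The comparison and the gene lists were chosen with earlier results of these data known. Genes were named if they were among the 15 largest called changes in a direction with a mean of at least 100 and libraries that did not overlap, up to 4 per list and direction, among the 10 smallest p in a direction, up to 10 per direction from 50 to 500 nM, or members of 6 chaperone families and fixed single genes. Positions, transcript lengths, exon overlaps and canonical starts came from GENCODE 44 on hg38, promoter sequences were read from hg38, and near-identical copies were searched with minimap2 2.31-r1302 and bedtools 2.31.1. Motif shares at the starts of the RefSeq promoter table were computed too, and the choice between the starts was made after seeing the data. Protein sequences were not analysed here, and some genes are not reported here.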

Additional observations from a re-analysis of the deposited data

How the results depend on the processing

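The number of genes called at 500 nM against DMSO ranged from 1795 without DMSO replicate 2 to 3097 without 0.5 nM replicate 2 when each of the 15 libraries was left out in turn, against 2409 with all. It was 2210 with DESeq2, 2432 with edgeR, 2023 with no filter, 3294 with the 6 libraries alone and 119 when a log2 change of 1 or more was also required. From 50 to 500 nM it ranged from 139 without 50 nM replicate 2 to 630 without 0.5 nM replicate 2, and was 8 with the fold limit. No gene called in both a setting and the main comparison changed direction. Of 282 called genes named by the rule, 228 passed under every alternative fit that gave a value, up to 25 per gene and without the fold limit, and 54 were lost under at least 1. Among 15 named genes that were not called, 3 changed sign: PPIA lay between -0.048 and 0.017, being above 0 without DMSO replicate 1 and, at 0.0056, without 500 nM replicate 2. HSPBP1 lay between -0.048 and 0.036, above 0 without DMSO replicate 2, and ATF4 between -0.029 and 0.026, above 0 without DMSO replicate 1. The cause was not tested. Same-numbered DMSO and 500 nM libraries did not deviate together (correlations of -0.052, -0.085 and -0.044). Deviations within groups of 3 libraries cannot decide whether same-numbered dishes were handled together, and the sample titles do not say. With the replicate block 2506 genes were called against DMSO and 343 against 50 nM. The widest intervals among the named genes were those of DNAJA3, PSMB3, TXNDC5 and HSPA6, so small changes of such genes could not be detected with 3 dishes per group.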
